A study of Mus musculus with 2 samples.

Results

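The members described here are Usp16 ChIP peaks that lie inside protein-coding genes of the mouse and away from the ends of genes. A peak was counted when its midpoint lay between the annotated start and end of a protein-coding gene and more than 1 kb from every annotated gene end of any biotype. This held for 1095 of the 5046 peaks on assembled chromosomes, out of 5079 listed, or 21.7% (95% exact interval 20.6 to 22.9%). The rule used positions only, so scores, widths and host genes were free to vary. They are called interior peaks below, and the gene around a peak is called its host.

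The chromatin came from bone marrow of mice, from cells sorted for c-Kit and Sca-1, which together enrich for stem and progenitor cells of the blood. One library was made with an antibody against Usp16 and one with IgG, both from mice that carried Mx1-Cre and loxP-flanked Usp16 alleles. The Mx1 promoter responds to interferon, and induction of Cre, the age of the mice and any pooling of animals are left unstated in the labels. With 1 library per antibody and a single list of peaks, no test across samples could be made, and every interval covers counting error only. Read depth is unknown, and the IgG signal was not analysed here, so peak scores are given without a control level.

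Usp16 removes ubiquitin from histone H2A, a mark that Polycomb complexes place on chromatin. A gene record in the annotation spans all of its transcripts, so a gene can hold further transcription starts inside its outer ends. Such internal starts can be promoters in their own right, and promoters of widely expressed mouse genes are commonly rich in the dinucleotide CG and often carry the core recognition sequence of ETS factors, CCGGAAG.

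A share of the interior peaks lay at annotated internal starts. RefSeq starts were known for 17492 of 21887 coding genes (79.9%), and 871 interior peaks had at least 1 host among them. Of these, 195 (22.4%, 95% interval 19.7 to 25.3%) were centred less than 1 kb from an internal start, although only 0.827% of the interior sequence of these genes lay that close. This came to 31.1 peaks per Mb (95% Poisson interval 26.9 to 35.8) near internal starts and 0.899 per Mb (0.832 to 0.969) elsewhere in gene interiors, a ratio of 34.6. An internal start here is one inside the outer limits of the gene record, and it need not be a secondary promoter. Of the 192 genes with a peak at an internal start of their own, 148 (77.1%, 95% interval 70.5 to 82.8%) had no start listed within 1 kb of their outer start, so that the internal start was the only kind listed. The same held for 1364 of 2521 coding genes with internal starts but no interior peak at one (54.1%, 52.1 to 56.1%). The name given to these peaks thus holds for the outer ends of genes, but not for every start of transcription. A further 224 interior peaks had no host with known starts and could not be sorted in this way.

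The sequences below show the bases just before 7 internal starts that lay under an interior peak, and before 3 that had no interior peak within 1 kb. They are the 3 highest-scoring interior peaks over an internal start of their own host, the 4 highest-scoring ones with CCGGAAG in the bases shown, and the next internal start without a peak along the chromosome from each of the first 3. Each run holds the 200 bases before the start, from RefSeq on GRCm38.p6, written 5′ to 3′ on the strand of the gene. Capitals mark every CG and every CCGGAAG or its reverse complement.
Hyal2, peak score 333, + strand, chr9:107568963-107569162: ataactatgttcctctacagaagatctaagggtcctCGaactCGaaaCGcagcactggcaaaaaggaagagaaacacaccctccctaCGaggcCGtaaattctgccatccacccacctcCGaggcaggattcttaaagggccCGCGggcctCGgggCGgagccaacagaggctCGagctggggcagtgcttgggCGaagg
Rbm26, peak score 231, - strand, chr14:105177315-105177514: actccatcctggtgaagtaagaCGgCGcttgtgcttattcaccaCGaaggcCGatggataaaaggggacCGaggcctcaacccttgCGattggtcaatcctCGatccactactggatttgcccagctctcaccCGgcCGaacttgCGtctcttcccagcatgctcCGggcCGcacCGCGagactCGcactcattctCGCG
Trp53rkb, peak score 201, + strand, chr2:166793567-166793766: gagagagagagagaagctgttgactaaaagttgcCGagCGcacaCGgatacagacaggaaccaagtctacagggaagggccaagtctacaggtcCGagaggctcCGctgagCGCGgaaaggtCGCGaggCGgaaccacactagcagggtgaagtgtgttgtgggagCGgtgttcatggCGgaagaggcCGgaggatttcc
Dcaf10, peak score 169, + strand, chr4:45341901-45342100: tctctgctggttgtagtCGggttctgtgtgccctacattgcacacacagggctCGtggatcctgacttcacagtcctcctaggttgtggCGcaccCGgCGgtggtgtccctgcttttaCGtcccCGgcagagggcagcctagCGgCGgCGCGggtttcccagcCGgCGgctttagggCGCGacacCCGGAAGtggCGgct
Cln3, peak score 157, - strand, chr7:126583237-126583436: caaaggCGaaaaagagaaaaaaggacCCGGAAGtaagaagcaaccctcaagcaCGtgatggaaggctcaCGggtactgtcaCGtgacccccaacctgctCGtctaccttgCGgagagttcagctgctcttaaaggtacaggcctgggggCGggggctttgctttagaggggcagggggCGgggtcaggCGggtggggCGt
Mettl9, peak score 123, + strand, chr7:121034245-121034444: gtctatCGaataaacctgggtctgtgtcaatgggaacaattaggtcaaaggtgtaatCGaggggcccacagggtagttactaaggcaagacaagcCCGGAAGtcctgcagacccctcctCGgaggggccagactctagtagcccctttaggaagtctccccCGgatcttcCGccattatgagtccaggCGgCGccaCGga
Lipe, peak score 123, - strand, chr7:25395988-25396187: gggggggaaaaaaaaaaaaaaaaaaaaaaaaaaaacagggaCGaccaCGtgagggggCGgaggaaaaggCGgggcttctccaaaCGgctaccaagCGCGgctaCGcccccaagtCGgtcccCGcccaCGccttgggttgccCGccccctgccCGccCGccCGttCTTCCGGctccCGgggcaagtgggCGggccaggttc
Mst1r, no peak, + strand, chr9:107914803-107915002: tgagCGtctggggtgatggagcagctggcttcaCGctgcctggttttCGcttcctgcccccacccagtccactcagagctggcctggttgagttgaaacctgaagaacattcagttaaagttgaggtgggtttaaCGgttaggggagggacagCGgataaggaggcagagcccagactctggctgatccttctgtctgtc
Abcc4, no peak, - strand, chr14:118676932-118677131: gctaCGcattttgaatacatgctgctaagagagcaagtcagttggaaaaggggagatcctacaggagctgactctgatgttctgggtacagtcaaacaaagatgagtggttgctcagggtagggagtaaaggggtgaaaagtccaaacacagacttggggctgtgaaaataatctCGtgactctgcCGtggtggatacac
Stau1, no peak, - strand, chr2:166964718-166964917: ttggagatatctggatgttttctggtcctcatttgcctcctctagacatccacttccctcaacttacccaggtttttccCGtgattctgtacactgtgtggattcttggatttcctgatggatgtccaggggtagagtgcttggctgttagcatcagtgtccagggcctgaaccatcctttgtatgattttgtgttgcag

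In these runs the starts under a peak held between 9 and 18 CG dinucleotides, and the 3 without a peak held 5, 3 and 1. The hosts differ in role: Hyal2 encodes a hyaluronidase, Rbm26 an RNA-binding protein, Dcaf10 a substrate receptor of a ubiquitin ligase, Cln3 a lysosomal membrane protein, Mettl9 a methyltransferase and Lipe the hormone-sensitive lipase. The Hyal2 peak (chr9:107568513-107569401) covered a start 1.29 kb inside a gene of 4.91 kb. The Rbm26 peak (chr14:105177045-105177682) covered a start 3.73 kb inside a gene of 74.3 kb.

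Over all such starts, those under an interior peak were richer in CG than those without one. The windows compared run from 250 bases before a start to 50 after it. At the 172 internal starts covered by a peak in their own host, the median number of CG was 21 (quartiles 15 and 26). At 2983 internal start groups of coding genes with no interior peak within 1 kb it was 6 (3 and 16). Peaks at gene ends were not searched for at these groups, which are called internal starts without a peak below. Starts at the outer boundary of coding genes with a peak within 1 kb held a median of 22 (2178 starts), and those without held 11 (13574 starts). Median GC content was 59.0% at internal starts with a peak and 53.3% at those without.

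CCGGAAG, searched on both strands, was found in 26.7% of internal start windows under a peak and in 5.67% of those without. Boundary starts with a peak held it in 26.6%, and all 32851 windows of the RefSeq table in 8.86%. Among internal windows with 20 or more CG the shares were 26.9% with a peak (25 of 93, 95% interval 18.2 to 37.1%) and 12.9% without (80 of 622, 10.3 to 15.8%). Among those with under 20 CG they were 26.6% (21 of 79, 17.3 to 37.7%) and 3.77% (89 of 2361, 3.04 to 4.62%). The intervals with and without a peak did not overlap in either class of CG content, so the difference was larger than counting error.

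For the other motifs the ratios were smaller. GGGCGG, the core bound by SP factors, was in 55.8% of covered and 34.0% of other internal windows, and the 2 classes of CG content differed in direction. Among windows with 20 or more CG it was in 69.9% (59.5 to 79.0%) and 84.2% (81.1 to 87.0%). Among those with under 20 CG it was in 39.2% (28.4 to 50.9%) and 20.8% (19.1 to 22.4%). CCAAT was in 31.4% and 35.3%, and TATAAA in 6.40% and 12.1%. AGATAA, the GATA core, was in 6.40% and 11.03%, TGTGGT, the RUNX core, in 11.6% and 17.7%, and the E-box CAGCTG in 12.2% and 19.0%. TGANTCA, the AP-1 site, was in 4.07% and 8.15%, TGACGTCA, the cyclic AMP response element, in 2.91% and 1.37%, and the CTCF motif in 0 and 0.067%. Over all windows of the table GGGCGG was in 35.7%, CCAAT in 37.4%, TATAAA in 13.6% and AGATAA in 11.2%. TGTGGT was in 16.8% of them, CAGCTG in 16.3%, TGANTCA in 7.81%, TGACGTCA in 1.79% and the CTCF motif in 0.037%. All were searched on both strands. A match to short letters is a description of the window and not a binding site.

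The peaks at internal starts were centred on them. The median distance from midpoint to start was 97 bp (quartiles 49.75 and 259.5), and 101 of the 195 lay within 100 bp. The midpoint lay downstream of the start in 70 (35.9%, 95% interval 29.2 to 43.1%), and the median signed distance was -50 bp. Of the 195 starts, 193 belonged to a host gene of the peak. These lay a median of 3.14 kb inside the gene (quartiles 1.80 and 10.02 kb), whereas all internal starts lay a median of 7.96 kb inside.

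**Figure D1:**
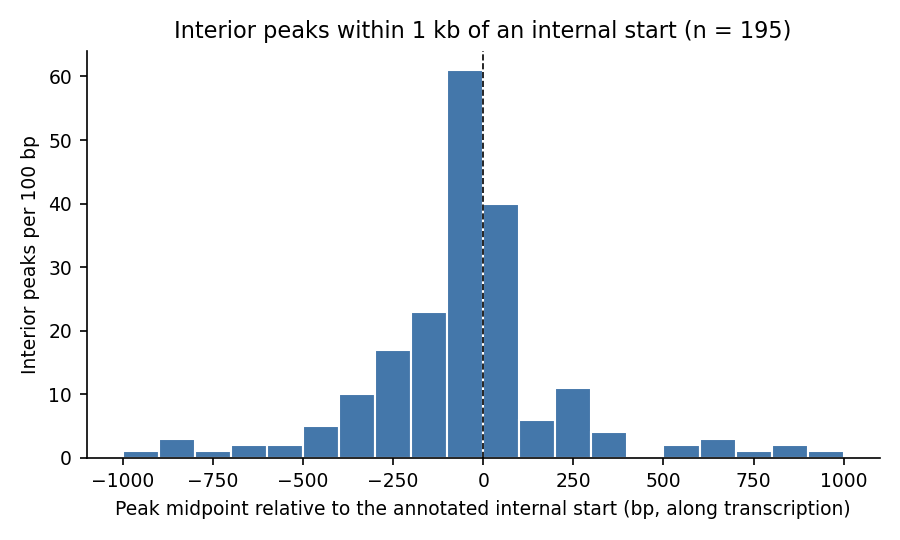
Number of interior peaks (vertical axis, per 100 bp) by the signed distance in bp of the peak midpoint from the nearest annotated internal start, for the 195 peaks within 1 kb. Most lie close to 0, and 101 are within 100 bp of the start.

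Most internal starts had no interior peak within 1 kb, and few hosts had peaks at both an internal and the outer start. Internal starts within 1 kb of each other formed 3384 groups, of which 197 (5.82%, 95% interval 5.06 to 6.66%) had an interior peak within 1 kb. Of boundary starts of coding genes, 13.8% had a peak that close. Among coding genes with interior sequence and known starts, 14.1% had a peak within 1 kb of the outer start and 1.02% within 1 kb of the outer end. Of the 195 host genes with a peak at an internal start, 11 also had one at the outer start (5.64%, 2.85 to 9.87%). Of the 584 hosts with other interior peaks only, 59 had one there (10.1%, 7.78 to 12.8%). The outer start is the limit of the gene record here, whether or not a start was listed there. None was listed for 148 of the 192 genes with a peak at an internal start of their own. These shares therefore do not compare listed promoters. In the 29 hosts with a peak that covered an internal start and with a listed outer start that had no peak, the internal start held more CG in 16, fewer in 12 and the same in 1.

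Interior peaks had lower scores and smaller widths than peaks at gene ends, and lower still away from internal starts. Their median score, the peak caller's own value per peak, was 66.2 (quartiles 56.7 and 87.2), against 75.3 (59.7 and 106) for 2677 peaks within 1 kb of a gene end and 64.5 (55.8 and 82.5) for 1060 peaks between genes. The median width was 615 bp (529 and 788) inside genes, 785 bp (629 and 1018) at gene ends and 580 bp (499 and 702) between genes. The 95% intervals of these medians did not overlap for any pair of the 3 widths, and for scores only the interior and between-gene intervals overlapped (64.6 to 67.7 and 63.0 to 66.0).

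Within the interior peaks, those at internal starts had a median width of 752 bp (625 and 966.5) and a median score of 73.1. Those away from them in hosts with known starts had 589.5 bp (514 and 733) and 64.0, close to the values between genes. The share at internal starts was 1 of 88 among the narrowest 10% (319 to 468 bp) and 37 of 87 among the widest (1035 to 3983 bp), or 1.14% and 42.5%. It differed less by score, with 10.2% in the lowest-scoring 10% and 29.9% in the highest.

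**Figure D2:**
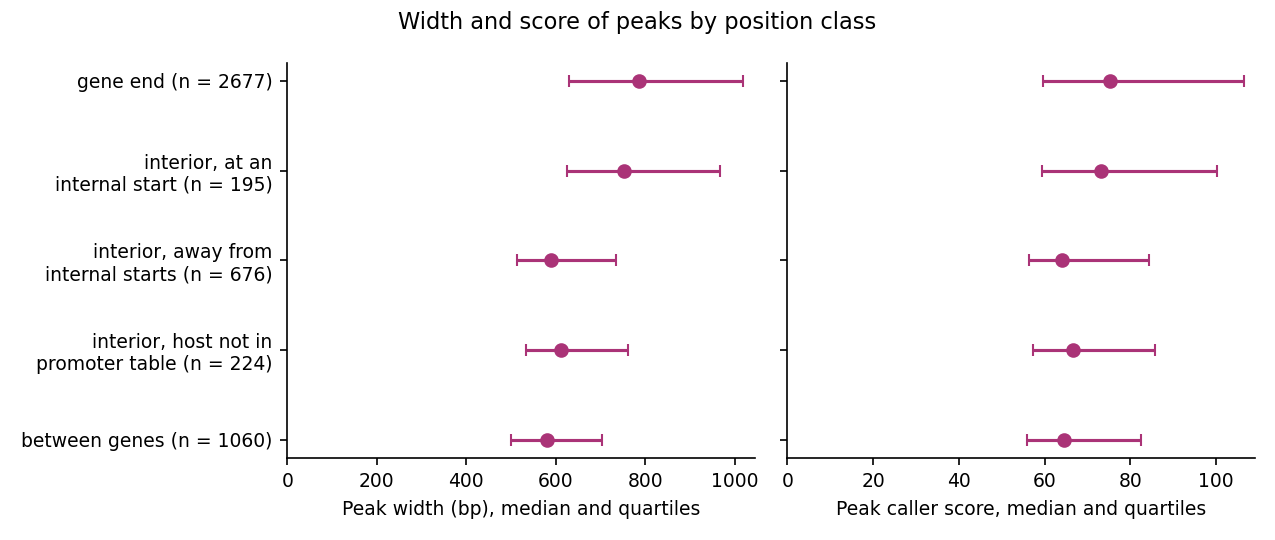
Median (point) and quartiles (bar) of peak width in bp and of the peak caller's score, for peaks at gene ends, 3 groups of interior peaks and peaks between genes. Interior peaks at internal starts sit at 752 bp, beside the 785 bp of gene ends, and interior peaks away from them at 589.5 bp, beside the 580 bp between genes.

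The gap in width was widest at low scores. At scores from 50 to 60, interior peaks at internal starts had a median width of 793 bp (n = 55) and others in hosts with known starts 554.5 bp (n = 252). At scores from 100 to 200 the medians were 701 and 700 bp (n = 46 and 88). Of 29 interior peaks with known starts and a score of 200 or more, 3 lay at internal starts (10.3%, 95% interval 2.19 to 27.4%). In that range the median width was 609.5 bp inside genes (n = 38), 620 bp between genes (n = 45) and 993 bp at gene ends (n = 113).

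Most of the highest-scoring interior peaks with known starts lay away from internal starts, as did most interior peaks. Of the 25 with the highest scores, all at 281 or more, 19 had a host with known starts, and 1 of these lay at an internal start. The share was 22.4% over all 871 interior peaks with known starts, and 29.9% (20.5 to 40.6%) in the highest-scoring 10% of them. With only 19 peaks, a lower share at the very top is not shown. The median width of the 25 was 606 bp, beside 615 bp for all interior peaks. The highest score was 725 in Clnk, an adaptor gene of immune receptor signalling (chr5:38736494-38737184, 691 bp wide). Next came Lama1, a laminin gene, at 688 (chr17:67741093-67741747), and Flt1, a receptor for vascular endothelial growth factor, at 645 (chr5:147611326-147611707, 382 bp). Each was the only interior peak of its gene, and they lay 31.3, 44.3 and 48.2 kb from the nearest gene end.

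Fam174a held a peak of 625 (chr1:95326693-95327388), 8.24 kb from a gene end. Ank1, which encodes an ankyrin of the red cell membrane skeleton, held one of 524 (chr8:23095408-23095975), 43.1 kb from the nearest end. Hsd11b1, a glucocorticoid-activating enzyme, followed at 519 (chr1:193227553-193228096), then the calcium channel subunit Cacng4 at 485 (chr11:107784043-107785522) and the potassium channel Kcnh1 at 440.1 (chr1:192453803-192454192). Efl1, a GTPase of ribosome maturation, reached 429 (chr7:82770840-82772307) and Dop1b 401 (chr16:93788929-93789470). Of these 10 hosts, 7 had known starts, and the peak lay between 61.9% and 95.1% of the way along each. None of the 7 had a peak at its outer start.

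The widest interior peaks had a median score close to the 66.2 of all interior peaks. The 21 wider than 1500 bp, described after their values were seen, had a median score of 66.7 (range 53.2 to 156), and 5 were known to lie at internal starts. The widest, 3983 bp, covered the whole of Rpl10a, a ribosomal protein gene of 2.56 kb (chr17:28328003-28331985, score 92.2). Myo3a, a myosin gene, held one of 3363 bp (chr2:22587055-22590417), 29.5 kb from a gene end. Actb, which encodes cytoplasmic actin, held one of 2695 bp in a gene of 4.86 kb (chr5:142904338-142907032, score 67.3). The Rpl10a peak reached past both ends of the gene while its midpoint lay 1.04 kb from the nearer one.

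The interior peaks fell in 981 genes, and most hosts had a single one. These were 5.11% of the 19211 coding genes with any sequence more than 1 kb from a gene end. Of the 1095 peaks, 1080 had 1 host and 15 lay in overlapping genes, up to 7 at once in the Ugt1a cluster, whose members encode glucuronosyltransferases and share their downstream exons. Hosts were long, with a median of 89.3 kb (quartiles 31.6 and 220 kb) against 21.5 kb (9.13 and 51.5 kb) for all genes with interior sequence. The longest host was Lsamp, a neuronal adhesion gene of 2197 kb, whose peak of score 63.0 lay 16.5 kb from a gene end. It was followed by Lrp1b, a receptor gene of 2058 kb with 4 peaks, and Macrod2 of 1998 kb with 2. The shortest were Rpl10a, then Tssc4 of 2.68 kb (score 60.4) and Insm2, a zinc finger gene of 3.10 kb (score 64.3).

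Longer genes were more often hosts, but held fewer interior peaks per base. Of genes under 20 kb, 1.76% were hosts (161 of 9172), and of those over 200 kb 25.5% (252 of 990). Per Mb of interior the order was the opposite, with 2.56 peaks (95% interval 2.18 to 2.98) in genes under 20 kb and 0.845 (0.759 to 0.939) in genes over 200 kb. Classes between held 1.26 (20 to 50 kb), 1.23 (50 to 100 kb) and 1.13 (100 to 200 kb), with intervals that overlapped each other. Of all peaks in a class, those known to lie at internal starts made up 38.0% under 20 kb and 2.86% over 200 kb. Peaks in hosts without known starts were counted as away from them here. Without the peaks at internal starts the densities were 1.59 (1.29 to 1.92), 0.847, 0.988, 1.02 and 0.821 per Mb, so the shortest class still stood above the others, whose intervals overlapped.

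**Figure D3:**
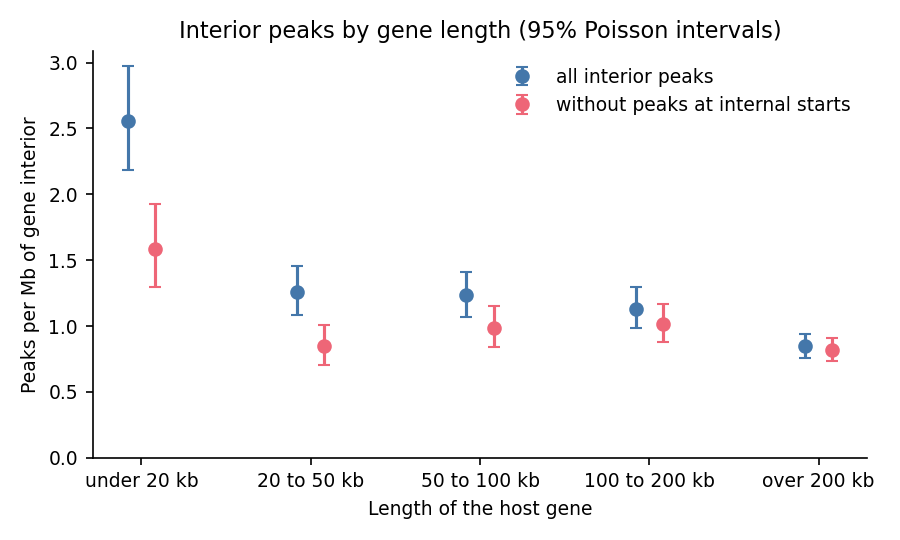
Interior peaks per Mb of gene interior (vertical axis) for 5 classes of gene length, with 95% Poisson intervals, for all interior peaks and without those within 1 kb of an internal start. The shortest class stands highest, at 2.56 and 1.59 per Mb, and genes over 200 kb lie at 0.845 and 0.821.

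In bins scaled to the length of the host gene, peaks at internal starts gathered near the outer start and the others followed the share of sequence. Strand was known for 888 pairs of a peak and its host. Of the 196 pairs at internal starts, 37.8% lay in the first 10% of the gene and 27.0% in the next 10%, which held 6.19% and 10.1% of the interior sequence of these hosts. These peaks lie at annotated starts by definition. The share of internal starts in each bin was not computed, so their positions may follow those of the annotated starts. Of the 692 other pairs, 8.53% (95% interval 6.55 to 10.9%) lay in the first 10% and 9.10% (7.07 to 11.5%) in the last, beside 8.44% and 8.32% of interior sequence. In each of the 10 equal bins along the gene the interval for these other peaks included the share of sequence. Bins 8 and 9 were highest, at 11.8% and 11.99%, beside 10.3% and 10.1% of sequence.

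**Figure D4:**
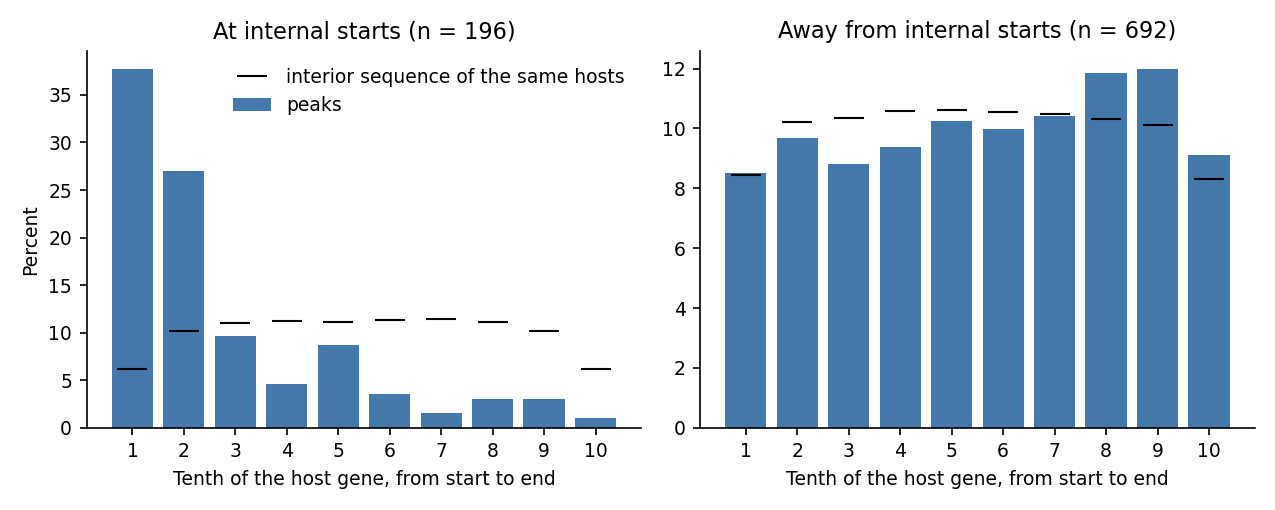
Percent of interior peaks (bars) in 10 equal bins of the host gene from start to end, for peaks at internal starts and away from them, with the percent of interior sequence of the same hosts in each bin (dashes). Peaks at internal starts are most frequent in bin 1 (37.8%), while the others follow the dashes.

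Measured in kb, density was highest next to the outer start. It was 6.28 peaks per Mb (95% interval 5.03 to 7.74) from 1 to 2 kb, 2.78 (2.28 to 3.35) from 2 to 5 kb and 0.99 (0.748 to 1.29) from 5 to 10 kb. Without the peaks and sequence near internal starts these values were 1.68 (1.05 to 2.54), 1.31 (0.971 to 1.73) and 0.648 (0.454 to 0.897), and beyond 100 kb 0.834 (0.73 to 0.947). The intervals at 1 to 2 kb and at 2 to 5 kb lay above that beyond 100 kb, which the bins scaled to gene length did not show. From the outer end the densities of all interior peaks were 1.77 (1.15 to 2.62) at 1 to 2 kb, 1.31 at 2 to 5 kb and 1.54 at 5 to 10 kb. They were 1.35 at 10 to 20 kb, 1.33 at 20 to 50 kb and 1.15 at 50 to 100 kb. Each of these intervals overlapped that of 1 to 2 kb, and beyond 100 kb the density was 0.887 (0.781 to 1.004). Without the peaks and sequence near internal starts, the density at 1 to 2 kb from the outer end was 1.71 (1.10 to 2.54). That lay close to the 1.68 from the outer start. At 2 to 5 kb from the outer end it was 0.919 (0.644 to 1.27) and at 5 to 10 kb 1.06 (0.804 to 1.36). The median interior peak lay 10.7 kb from the nearest gene end, and 563 (51.4%) lay farther than 10 kb.

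The members next to the 1 kb limit had scores on both sides of the interior median. Just inside it were peaks in Trim41 (1000.5 bp from an end, score 103), Dcaf10 (1003.5 bp, 169) and Tcf4 (1004 bp, 55.8). Just outside were peaks in Kdm2a (990.0 bp, score 50.7), Zswim8 (982.5 bp, 64.1) and Lrmda (982 bp, 51.7). Between 1 and 2 kb from an end lay 154 interior peaks.

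Several interior peaks in 1 gene were found in 103 hosts (10.5%, 95% interval 8.65 to 12.6%), which held 230 of the 1095 peaks. These hosts had a median length of 345 kb, against 76.3 kb for hosts with 1 peak, and 65 of them were longer than 200 kb. Neighbouring peaks in a gene lay a median of 36.2 kb apart (quartiles 20.8 and 132 kb), and 14 of 139 neighbouring pairs were closer than 10 kb. Hosts with 2 peaks numbered 84, with 3 peaks 11, with 4 peaks 5 and with 5 peaks 1, beside 1 gene with 6 and 1 with 10. Hosts and neighbouring pairs were counted per gene, also where genes overlap. The same 2 peaks in 6 genes of the Ugt1a cluster thus entered once for each gene. So did the 2 peaks shared by Cmss1 and Filip1l.

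Lrmda, a gene linked to melanocyte differentiation, held the most, with 10 peaks over 967 kb of its 1037 kb (chr14:22019504-23056093). Their scores ran from 52.9 to 190.3 with a median of 72.8, the 3 highest (190.3, 155 and 154) belonged to the 3 widest peaks (1301, 1326 and 1432 bp), and none lay at an internal start. Its density of 9.91 peaks per Mb compares with 0.845 for all genes over 200 kb. Adk, which encodes adenosine kinase and lies before it on the same chromosome (chr14:21052574-21448569), held 4 peaks of scores 108, 57.7, 175 and 78.7. The first of these lay at an internal start, and the density was 10.3 per Mb.

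Smyd3, a methyltransferase gene, held 6 peaks with scores from 50.3 to 68.05 (chr1:178951960-179518053). Bcas3 held 5, with scores of 51.9, 169, 78.1, 64.2 and 56.2 from start to end (chr11:85353110-85826058), and it had a peak at its outer start. In Lrp1b the 4 scores were 62.6, 67.8, 273 and 161, and the peaks were narrow, at 401 to 546 bp. Spacing was close in Diaph1, a formin gene of 92.0 kb, with 4 peaks over 31.3 kb and 2.85 kb between the nearest. Rad51b, a recombination gene, held 4 peaks of nearly equal score (61.5 to 64.6) over 360 kb, and Dnm3, a dynamin gene, 4 of 75.7 to 85.4 over 67.1 kb. Unc5c, a netrin receptor gene, held 3 within 22.9 kb (193, 57.5 and 146), and Tenm3, a teneurin gene, 3 over 722 kb (58.3, 155 and 65.0).

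**Figure D5:**
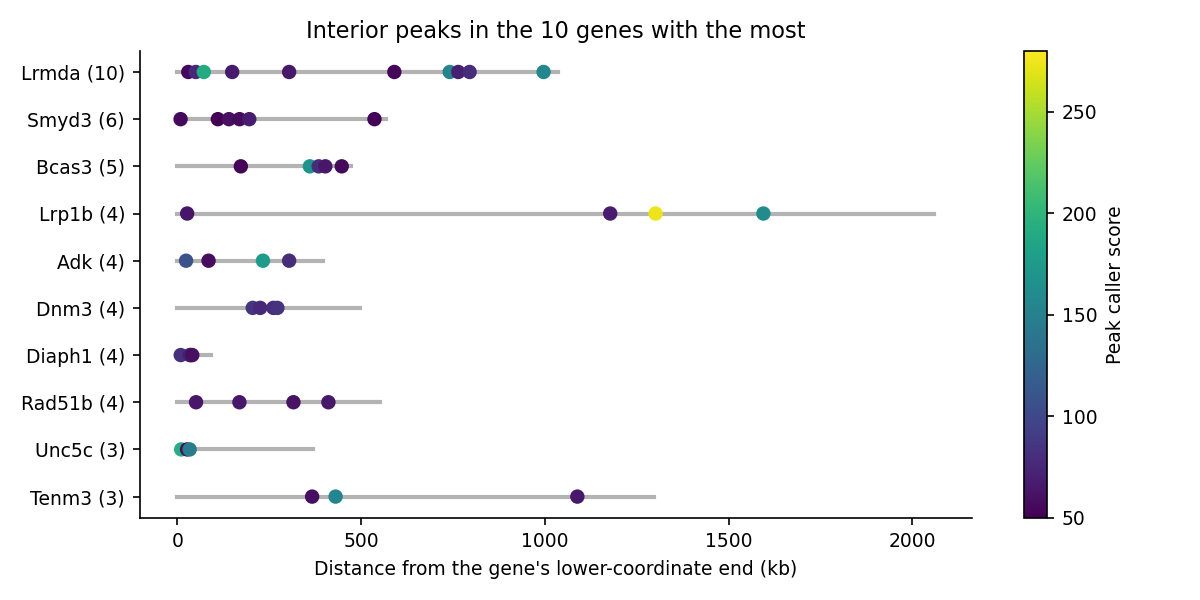
Positions of interior peaks (points, coloured by the peak caller's score) along the 10 genes with the most, as distance in kb from the end with the lower coordinate, with gene length as a grey line and the number of peaks in brackets. Lrmda holds 10 peaks over 967 kb, while the 4 peaks of Diaph1 lie within 31.3 kb.

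No list of blood cell genes held more than 1 host. Of 30 genes for transcription factors of stem and progenitor cells 1 was a host, Prdm16 (score 59.6), beside 5.11% of all coding genes with interior sequence. None of 21 surface proteins of these cells, 9 megakaryocyte genes and 14 myeloid genes with interior sequence was a host. Of 16 erythroid genes Ank1 was one, of 19 lymphoid genes Ebf1, a B-cell transcription factor (score 104), and of 16 genes of stroma and endothelium Flt1. The interiors of these lists were small, at 0.25 to 3.26 Mb, and each upper 95% bound lay above the 1.14 peaks per Mb found over all coding genes, with overlapping genes counted separately. A lower density was therefore not detectable for any of them. Usp16 (28.5 kb), Kit (81.7 kb) and Cdkn1a (9.74 kb) had no interior peak.

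Genes of histone-modifying enzymes were hosts in 7 of 54 cases (13.0%, 95% interval 5.37 to 24.9%), at 1.63 peaks per Mb (0.657 to 3.37). They included the H3K4 methyltransferase gene Kmt2d (score 159, chr15:98871608-98872626) with a peak near an internal start, the demethylase gene Kdm6b (142) and Kmt2c (79.3). Kinesin and myosin genes were hosts in 10 of 63 cases, at 1.51 per Mb (0.724 to 2.78), led by Myo3a (129), Kif14 (111) and Kif26b (99.1). Their shares of hosts exceeded 5.11%, but their median lengths of 57.3 and 67.7 kb also exceeded 21.5 kb, and each interval of density included 1.14 per Mb.

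The list of synapse and neuronal adhesion genes holds some of the longest of the genome. It also includes long genes of other kinds, among them Lrp1b and Macrod2 with 4 and 2 of its 21 peaks. Of its 42 genes, with a median length of 1137 kb, 14 were hosts (33.3%, 95% interval 19.6 to 49.5%), an interval that includes the 25.5% of all genes over 200 kb. Per Mb of interior they held 0.408 peaks (0.253 to 0.624), beside 0.845 (0.759 to 0.939) in all genes over 200 kb, a class that overlaps this list, and the intervals did not overlap. That class starts at 200 kb and was not split further, while the list has a median length of 1137 kb. The comparison was therefore not matched for length. The highest scores were in Lrp1b, Cntn6 (131) and Opcml (120). Cadherin and protocadherin genes held 0.493 per Mb (0.198 to 1.02) in 6 hosts of 97, led by Cdh23 (177), Cdh13 (146) and Cdh26 (77.3).

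The other lists had densities near the background or little interior sequence. Over all coding genes with interior sequence, 5.11% were hosts and the density was 1.14 peaks per Mb. Numbered Zfp zinc finger genes gave 12 hosts of 366 at 1.14 per Mb, with 5 of 12 peaks known to lie at internal starts, led by Zfp263 (125), Zfp46 (96.7) and Zfp521 (93.2). Solute carrier genes gave 14 of 336 at 0.991 per Mb, among them Slc8a1 (154) and Slc15a4 (133). Collagen genes, with a median length of 114 kb, gave 6 of 44 at 1.14 per Mb (0.420 to 2.49), led by Col4a6 (187), Col18a1 (137) and Col23a1 (128). Of 43 MAP kinase cascade genes Map2k6 (206) and Map2k5 (68.1) were hosts, and of 56 ubiquitin-specific protease genes Usp29 (106) and Usp54 (93.5). These lists held 0.713 (0.0863 to 2.58) and 0.655 (0.0794 to 2.37) per Mb. Cytosolic ribosomal protein genes held 0.102 Mb of interior and 3 peaks, in Rpl10a, Rps27l (85.8) and Rpl19 (74.3), or 29.4 per Mb (6.06 to 85.9), and those in Rps27l and Rpl19 lay at internal starts. No olfactory receptor gene (149 with interior sequence) and 1 of 144 vomeronasal receptor genes, Vmn2r77 (68.2), was a host. Their interiors held 0.850 and 3.09 Mb, and the upper bounds of density, 4.34 and 1.80 per Mb, lay above 1.14.

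By chromosome, autosomes held between 0.619 interior peaks per Mb of interior (chromosome 16, 95% interval 0.393 to 0.929) and 1.47 (chromosome 18). Chromosome X held 0.464 (20 peaks, 95% interval 0.284 to 0.717), and chromosome Y held none in 1.95 Mb. The intervals of X and of chromosome 16 overlapped each other, and both lay below the overall value of 1.13 (1.07 to 1.20). The sex of the mice and the copy number of X were not given in the sources used here.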

How the data were processed

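ChIP-seq peaks of 1 anti-Usp16 library were analysed, with 1 IgG library beside it and no replicates. Per the file headers, the authors called peaks with MACS in Galaxy and deposited a position and a score for each. Bowtie, Picard and mm10 are listed in the submitters' processing notes. The smallest deposited score was 50. Tool versions, settings and the role of IgG were not given in the sources used here.

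Genes were 49943 records of RefSeq GRCm38.p6, the assembly mm10 names. Starts, strands and window sequences came from a RefSeq promoter table of 32851 rows, which is not complete and has no coding gene of chromosome 18. No genome sequence was used, so the planned motif search in the peaks was replaced by one at annotated starts. Interior sequence is the part of a coding gene more than 1 kb from every gene end. Intervals are 95% exact binomial (Clopper-Pearson), exact Poisson or, for medians, order-statistic intervals. Members, lists and alternatives were chosen with earlier results of these data known. The comparison with internal starts was added after the peaks were seen. Computations (Python 3.11.15, pandas 2.3.3, scipy 1.17.1) were tested on simulated data.

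Named genes were the 10 with the highest-scoring interior peak, the 10 with the most (ties, as among the 11 with 3 peaks, by highest score), the 3 longest and 3 shortest hosts, the hosts of the 3 widest peaks, up to 3 members per list by score, 3 peaks on either side of the limit, Usp16, Kit, Cdkn1a and Ank1, and the genes of the printed sequences. One list and 1 member of another are not reported here.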

Additional observations from a re-analysis of the deposited data

How the results depend on the processing

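Each of 10 results was recomputed under up to 8 other settings. Of 79 values, 51 stayed within the interval of the main value (within 1.5 times for counts). The differences in median score and in median width from gene ends stayed negative under every setting. The other results are counts, shares or densities, which cannot be negative, so a change of sign was not possible for them. The share of interior peaks was 24.7% with a limit of 500 bp, 14.8% with 5 kb, 18.7% for peaks scoring at or above the median, 20.1% when the whole peak had to lie away from ends, and 23.2% with ends of protein-coding genes only. The share within 1 kb of an internal start was 25.6, 9.79, 28.3 and 19.3% under the first 4 of these, and 16.5% within 250 bp. In genes under 20 kb the density was 3.19, 1.53, 1.11 and 1.89 peaks per Mb under the same 4, and 1.59 without peaks at internal starts. In genes over 200 kb it was 0.370 for peaks scoring at or above the median. The share in the first 20% of the gene, 28.5% in the main setting, was 34.2, 15.8, 33.1 and 25.1%, and 18.2% without peaks at internal starts. For peaks scoring at or above the median, hosts numbered 442 and hosts with several peaks 29. That setting leaves out all peaks below the median score, so lower counts and densities per Mb under it were fixed in advance. The difference in median score from gene ends was -7.25 with 5 kb and -6.85 at or above the median, from -9.18. The difference in median width was -151, -129 and, without peaks at internal starts, -190.0 bp, from -170.0. Merging neighbouring peaks and leaving out X and Y moved no result. The planned sequence search over whole peaks was not run. No paired analysis was possible because there is 1 library per antibody. Peaks scoring below 50 are not listed, so a gene without a peak is not shown to lack binding.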
